A study of Mus musculus with 8 samples.

Results

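Hspd1 and Hspe1 encode the partner proteins of the mitochondrial chaperonin, and these 2 genes are described here out of 779 in the deposited table. They were chosen by name, as neighbouring genes whose proteins work in 1 complex, and both were found. The data are single-cell RNA counts from the droplet-based 10x platform, made from stomach glands of mice carrying Atp4bCre, Rosa26NICD and Arid1a flox/flox, at 23 weeks of age. Atp4b is a gene of the proton pump of parietal cells, so its promoter drives Cre there. Where Cre acts, the Notch intracellular domain (NICD) is expressed from Rosa26, and the floxed sequence of Arid1a, a BAF chromatin remodeller subunit gene, is deleted. The labels list 8 samples, all of this genotype, and each is worded as a gland of a mouse, without saying whether the mouse is the same. Live cells staining strongly for EPCAM were sorted before the libraries were made. No control genotype was analysed here, and the barcodes of the table carry no sample number, so all cells form 1 pooled sample without replicates and no p-value is given.

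Hspd1 (Hsp60) forms the barrel in which newly imported mitochondrial proteins fold, and Hspe1 (Hsp10) is the lid that closes it. Both are made in the cytosol from nuclear genes and imported. They are known targets of the heat shock factor and of the mitochondrial unfolded protein response, and Myc is known to raise both. Gastric gland cells, the acid-secreting parietal cells above all, are rich in mitochondria.

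The genes lie head to head on chromosome 1 (GRCm38, the assembly that mm10 names). In GENCODE vM21, Hspd1 (ENSMUSG00000025980.14) runs on the minus strand from 55077835 to 55088243 and Hspe1 (ENSMUSG00000073676.4) on the plus strand from 55088132 to 55091307. Their bodies overlap by 112 bases at the 5′ ends. The Hspd1 transcripts that reach this overlap are those that start at 55088243, while the longest-running one starts at 55088024. Whether the counting used strand is not given in the sources used here, so reads from those 112 bases could have been split between the genes. GENCODE also names 5 processed pseudogenes of Hspd1 and 6 of Hspe1, and reads that match a pseudogene equally well could have been lost from either row.

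Between the starts lies sequence shared by both genes, and because the genes varied together across cells its motifs were searched. RefSeq (GRCm38.p6) gives Hspe1 1 start, at 55088148, and Hspd1 starts at 55087932 and 55088243. The search covered both strands of the windows from 250 bases before to 50 after each start, for the core of the heat shock element (TTCNNGAA), the CCAAT box (CCAAT), the E-box bound by Myc (CACGTG), the GC box (GGGCGG) and a C/EBP-like site (TGCAAT). The stretches of 30 bases below hold the heat shock cores and the C/EBP-like site, on the Hspe1 strand, with the matches in capitals.
Heat shock cores, chr1:55088053-55088082: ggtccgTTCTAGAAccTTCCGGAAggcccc
C/EBP-like site, chr1:55087937-55087966: acgccggggcccTGCAATctgcatgcggcg
The 2 heat shock cores, 2 bases apart, end 72 bases upstream of the Hspe1 start and lie 127 to 144 bases upstream of the Hspd1 start at 55087932. They lie inside the transcript for the Hspd1 start at 55088243. A match to the heat shock core occurs in 8.52% of the 32851 promoter windows of the mouse table, and 2 or more in 0.524%. The C/EBP-like letters occur in 8.40% of windows. An E-box (7.15% of windows) was found 80 bases before the Hspd1 start at 55088243 and not in the other windows of the pair. GC boxes (35.7% of windows) were found in every window of the pair, and a CCAAT box (37.4%) only directly beside the Hspd1 start at 55088243. Such matches describe letters and show no binding.

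The table covers the first part of chromosome 1: 711 of its 779 symbols match GENCODE there, up to position 89933290. Barcodes with 100 or more unique molecular identifiers (UMIs, 1 per captured RNA molecule) were kept (1388 barcodes), and 72 were left out. The kept barcodes held 439743 UMIs. The kept cells had 100 to 1082 UMIs, with a median of 286, and these are totals over the covered genes and not library depth. Levels are in CPM, UMIs of the gene per 1000000 UMIs of the table, and intervals in parentheses are 95% intervals for counting error only, since cells are not replicates. Rpl7, Rpl31, Rpl37a and Ptma together held 49.7% of the UMIs, so a CPM also moves with these 4 genes. Of the marker lists, those for parietal, chief, pit, neck, tuft and macrophage cells and for epithelium and endothelium had no gene in the table, and the labelled epithelial identity could not be checked with Epcam. The endocrine list had 3 of 6 genes and the T cell list 3 of 5, with 200 and 20 UMIs in all.

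Both genes were abundant, and Hspe1 gave more molecules than its partner. Hspe1 ranked 7th and Hspd1 11th of the 779 genes, with 11835 and 4573 UMIs. The Hspe1 level was 26913 CPM (26431 to 27403) and the Hspd1 level 10399 CPM (10100 to 10705). A UMI counts a captured molecule and was not divided by transcript length, and whether the transcripts are captured equally well is not given in these data. A cell held 0 to 53 UMIs of Hspe1, with a median of 7 and a middle range of 4 to 11. For Hspd1 a cell held 0 to 25 UMIs, with a median of 2 and a middle range of 1 to 4. A UMI of Hspe1 was found in 1355 of 1388 cells, 97.6% (96.7 to 98.4), and a UMI of Hspd1 in 1149, 82.8% (80.7 to 84.7). With every cell thinned to 100 UMIs the shares were 89.8% (88.1 to 91.4) and 58.4% (55.7 to 61.0). No set of cells known to lack the mitochondrial chaperonin was marked out in the table, so these shares could not be set beside a background from free RNA.

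Most cells held both transcripts. Of the 1388 cells, 1140 had a UMI of each gene, 215 of Hspe1 alone, 9 of Hspd1 alone and 24 of neither. The 24 cells with neither were shallow, with a median of 151 UMIs, and no cell of 300 or more UMIs was among them. Hspe1 outnumbered Hspd1 in 1208 cells (87.0%), equalled it in 102 and was below it in 78. The pair together took a median of 3.24% of a cell's UMIs, with 0.994% at the 5th percentile, 6.36% at the 95th and 11.9% in the highest cell. The cell with the most pair molecules had 53 of Hspe1 and 14 of Hspd1 among 781 UMIs, and the next had 40 and 25 among 727.

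Levels of both genes were higher in deeper cells, Hspd1 by more than Hspe1. In 330 cells of 100 to under 200 UMIs Hspd1 was at 6676 CPM (5990 to 7418), and in 405 cells of 200 to under 300 UMIs at 7609 (7080 to 8167). It was at 10063 (9469 to 10685) in 307 cells of 300 to under 400 UMIs and at 13215 (12691 to 13756) in 346 cells of 400 or more. The first 2 bins overlap in their counting intervals, and the other two stand clear of each other and of both. Hspe1 was at 20162 (18956 to 21425), 22648 (21729 to 23597), 26089 (25127 to 27078) and 31703 (30888 to 32534) CPM in the same order, with no overlap between neighbouring bins. From the shallowest to the deepest bin Hspd1 was 1.98-fold higher (1.77 to 2.22) and Hspe1 1.57-fold (1.47 to 1.68). A rise of 1.5-fold or more over these bins was seen in 8.26% of the 218 genes with a UMI in at least 5% of cells, and there Hspd1 stood 10th and Hspe1 15th, below Prim2 and Mcm3 of DNA replication.

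The summed share of Rpl7, Rpl31, Rpl37a and Ptma hardly moved over these bins, from 48.5% to 50% of the UMIs. With those 4 genes taken out of the total, Hspd1 was still at 12960 CPM in the shallowest and 26406 in the deepest bin, and Hspe1 at 39143 and 63348. Thinned to 100 UMIs, a cell of the shallowest bin had an Hspd1 UMI in 50.3% of cases (44.8 to 55.8) and a cell of the deepest bin in 70.2% (65.1 to 75). For Hspe1 the thinned shares were 85.8% (81.5 to 89.3) and 94.5% (91.6 to 96.7). No doublet caller was run, and the part of doublets among the deep cells was not tested.

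The ratio of the transcripts fell as depth rose. Over all cells there were 2.59 Hspe1 UMIs per Hspd1 UMI (2.50 to 2.68). The ratio was 3.02 (2.67 to 3.42) in the shallowest bin, 2.98 (2.74 to 3.23) in the next, 2.59 (2.42 to 2.78) at 300 to under 400 UMIs and 2.40 (2.29 to 2.52) in the deepest. The first 2 bins cannot be told apart, nor can the last 2, whose intervals overlap. The shallowest and the deepest bin do not overlap.

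**Figure D1:**
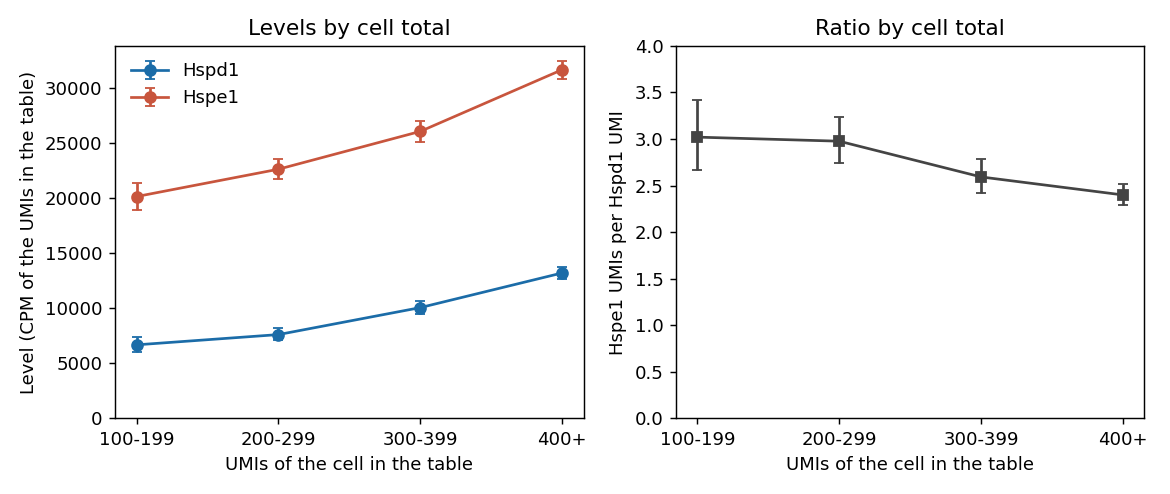
Left, summed level of each gene in CPM of the UMIs in the table, and right, Hspe1 UMIs per Hspd1 UMI, both against the cell's total in 4 bins (330, 405, 307 and 346 cells), with 95% counting intervals as bars. Both levels rise, Hspd1 from 6676 to 13215 and Hspe1 from 20162 to 31703 CPM, and the ratio falls from 3.02 to 2.40.

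From cell to cell the split between the genes varied about as counting gives in the shallowest bin, and beyond it in deeper cells. Shallow cells hold few pair UMIs, so the split can show little beyond counting there. Given a cell's number of pair UMIs, the variance of its Hspe1 count was 0.966 times the binomial variance in the shallowest bin, 1.13 and 1.24 times in the next bins and 1.33 times in the deepest. Hspe1 made up 75.1% of pair UMIs in the shallowest bin (72.8 to 77.4) and 70.6% in the deepest (69.6 to 71.6).

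Cells with more Hspd1 also held more Hspe1, in every depth bin. Within each bin, cells were ranked by the share of their UMIs that was Hspd1 and cut into 3 groups of like size (low, middle and high), and the Hspe1 level was taken over the UMIs other than Hspd1. Among cells of 400 or more UMIs the Hspe1 level was 25950 CPM (24639 to 27311) in the low, 31483 (30083 to 32932) in the middle and 38431 (36899 to 40010) in the high group, with no overlap. The high group stood 1.48-fold above the low group there (1.39 to 1.58). The same ratio was 1.37 (1.24 to 1.5) at 300 to under 400 UMIs, 1.19 (1.08 to 1.32) at 200 to under 300 and 1.25 (1.07 to 1.46) at 100 to under 200 UMIs. In the reverse direction, with groups by Hspe1, the Hspd1 level of the deepest bin went from 9866 (9061 to 10723) to 17296 CPM (16254 to 18387), 1.75-fold higher (1.58 to 1.95). In the shallowest bin that ratio was 1.39 (1.06 to 1.84). In the shallowest bin the low group by Hspd1 held 110 cells, all with a count of 0, and 127 cells of that bin had a count of 0, so the border fell within tied cells.

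**Figure D2:**
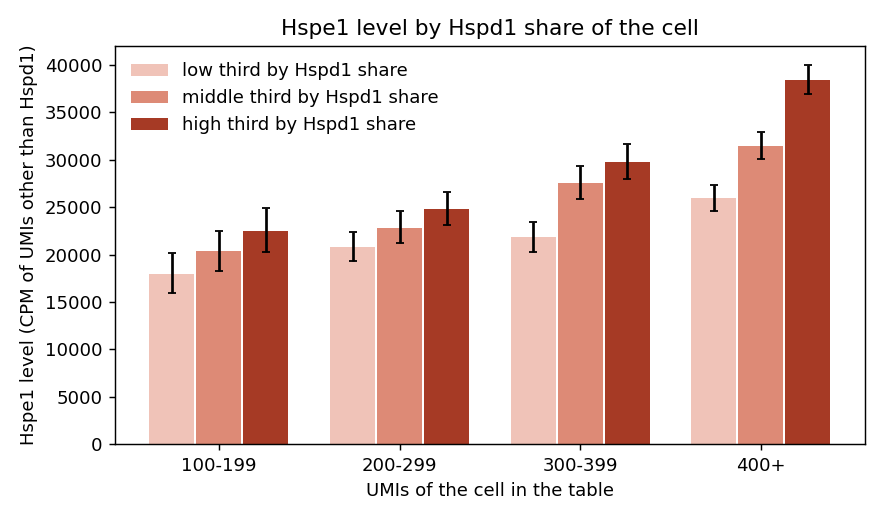
Hspe1 level in CPM of the UMIs other than Hspd1, for cells in the low, middle and high group by Hspd1 share within each of 4 bins of the cell total, with 95% counting intervals as bars. The bars step up in each bin, and in cells of 400 or more UMIs they reach 25950, 31483 and 38431 CPM.

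As a correlation over cells, the co-variation grew with depth as counted and much less once counting noise was removed. Residuals given the cell total correlated at r = 0.135 (n = 330 cells), 0.156 (n = 405), 0.273 (n = 307) and 0.421 (n = 346) from the shallowest to the deepest bin, with a mean over bins of 0.243. The cells share 1 pooled table, their totals differ within a bin, and both counts enter the total, so these values are a description. After the Poisson variance of the counts was subtracted, the correlation of the underlying levels was estimated at 0.631, 0.566, 0.597 and 0.712 in the same bins. On that scale the coefficient of variation between cells was 0.371 to 0.505 for Hspd1 and 0.25 to 0.374 for Hspe1, so Hspd1 had the wider relative spread on average (0.444 against 0.301 as means over bins). No interval was computed for these estimates. The estimated correlation is not held below 1, and for Cox5b with Ndufb3 it was 1.02 in the deepest bin.

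Among all pairs of the 218 genes this one stood 8th of 23653 by mean correlation, where the median pair was at 0.00378 and 0.0634% of pairs reached 0.2. Low counts lower a correlation as counted, and Hspd1 and Hspe1 are among the best counted genes, so this place depends partly on abundance. No ranking with counting noise removed was made. Among the pairs above it were Rpl31 with Rpl37a (0.362), Eef1b2 with Rpl37a (0.335), Rpl7 with Eef1b2 (0.281), Cox5b with Ndufb3 (0.270), Ptpn18 with Fam117b (0.26) and Mcm3 with 2810408I11Rik (0.254). Ribosomal proteins, an elongation factor and respiratory chain subunits make up the first 4. For Hspd1, the genes most like it were Hspe1, Ncl (0.202), Mcm3 (0.185), Ndufs1 (0.136) and Nop58 (0.132). For Hspe1, they were Hspd1, Ncl (0.134), Mcm3 (0.129), Ndufs1 (0.0845) and Atic (0.0807).

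The pair was also set beside the other head-to-head gene pairs of the table. In 19 neighbouring gene pairs the starts lay within 1000 bases on opposite strands, facing away from each other, and Hspd1 with Hspe1 had the highest mean correlation of them. The other 18 ranged from -0.110 to 0.0535, with a median of 0.0122. Tgfbrap1 with AI597479 was the next highest, at 0.0535, with only 163 and 117 UMIs. Txndc9 with Eif5b, far better counted at 1422 and 2920 UMIs, was at 0.0445. Ndufs1, the largest subunit of complex I, and Eef1b2, whose starts lie as close, were at -0.110. Most of these genes had fewer UMIs than the chaperonin pair, which lowers a correlation as counted, and no value with counting noise removed was computed for them.

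The nearest genes on either side, among those in at least 5% of cells, did not follow the pair. Coq10b, Sf3b1 and Ankrd44 on the Hspd1 side had mean correlations with the summed pair of -0.0701, -0.0186 and -0.0347. Mob4, Mars2 and Tyw5 on the Hspe1 side had -0.0147, 0.0230 and 0.0209. Of these, Sf3b1, a splicing factor gene with 1939 UMIs, and Mob4, with 1444, were counted well.

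**Figure D3:**
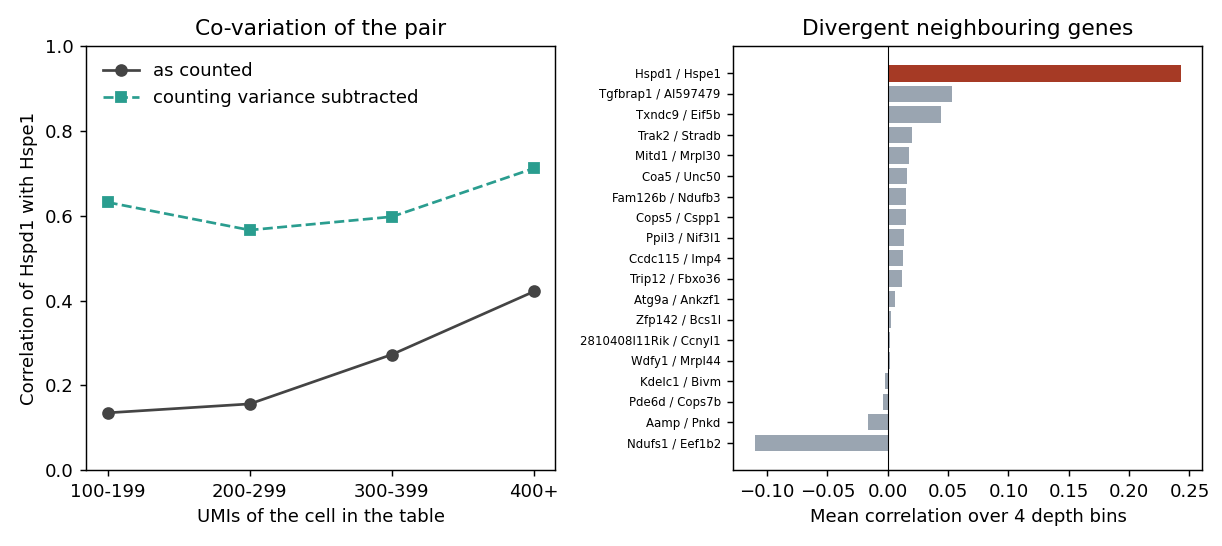
Left, correlation of Hspd1 with Hspe1 over cells in 4 bins of the cell total, as counted (residuals given the total) and with the Poisson counting variance subtracted. Right, mean correlation over the 4 bins for the 19 head-to-head gene pairs with starts within 1000 bases, where Hspd1 with Hspe1 stands at 0.243 and the others between -0.110 and 0.0535.

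Few genes went with the summed pair, with weak correlations, and Ncl was the only one at 0.1 or more under each way of computing them that was tried. Of 216 other genes, 5 (2.31%) had a mean correlation of 0.1 or more with Hspd1 plus Hspe1 and 12 (5.56%) one of -0.1 or less. With Rpl7, Rpl31, Rpl37a and Ptma left out of the cell total, 2 were at 0.1 or more and 22 at -0.1 or less. Ncl, the major nucleolar protein, was highest at 0.192, followed by the replication helicase gene Mcm3 (0.184), Ndufs1 (0.129), the snoRNP gene Nop58 (0.119) and Coa5 (0.1), which serves assembly of cytochrome c oxidase. The purine synthesis gene Atic (0.0971), the cytochrome c oxidase subunit gene Cox5b (0.0924), the mitochondrial ribosomal protein gene Mrpl15 (0.0913), the sphingolipid phosphatase gene Sgpp2 (0.0879) and the ribosome biogenesis gene Rrs1 (0.0747) completed the 10 highest. With cells thinned to 100 UMIs, Ncl was at 0.102, Mcm3 at 0.0704, Ndufs1 at 0.0632, Nop58 at 0.0807 and Coa5 at 0.0615. With Spearman's correlation, Ncl was at 0.186, Mcm3 at 0.0158, Ndufs1 at 0.0522, Nop58 at 0.0737 and Coa5 at 0.00774, so the last 4 lost the mark of 0.1 in either case. Ncl rose in step with depth, from 0.0100 in the shallowest bin to 0.419 in the deepest, so its place rests on the deep cells.

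Sizes were read between low, middle and high groups of cells by the pair's share within each depth bin, over the UMIs other than the pair. These sizes restate the same co-variation. The groups held 464, 462 and 462 cells and had median totals of 284, 285 and 289 UMIs, and the pair took 2.07%, 3.58% and 5.44% of their UMIs. Mcm3 was at 468 CPM in the low and 1232 CPM in the high group, 2.63-fold higher (1.97 to 3.56). Ncl went from 12531 to 18343 CPM, 1.46-fold (1.38 to 1.56), and reached 1.80-fold in the deepest bin against 0.932 in the shallowest. Nop58 stood 1.48-fold higher (1.27 to 1.72) and Atic 1.61-fold (1.32 to 1.97). Cox5b, the most abundant of these genes, differed by 1.11-fold only (1.08 to 1.15). Over all 216 genes the median was 0.988, and 3.7% were at 1.5-fold or more.

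On the other side stood Itm2c, the small GTPase gene Arl4c, the interleukin 1 receptor gene Il1r1 and the kinase gene Map4k4. Their mean correlations were -0.176, -0.161, -0.118 and -0.117. The level in the deepest bin was 0.265 times that in the shallowest (0.231 to 0.305) for Itm2c. It was 0.601 (0.498 to 0.728) for Arl4c, 0.705 (0.522 to 0.963) for Map4k4 and, the other way, 2.43 (1.44 to 4.37) for Il1r1. Totals also differ within bins. In the deepest bin Npbwr1, with no UMI there, was at -0.290 and Itm2c at -0.230. The part of depth in these correlations was not tested. With thinned cells the mean correlations, in the order first named, were -0.0305, -0.0823, -0.0747 and -0.0149, short of -0.1. With Spearman's correlation they were -0.209, -0.201, -0.170 and -0.160. By that measure 89 of the 216 genes were at -0.1 or less, against 12 as reported, so these values do not single the named genes out. Arl4c was at 3493 CPM in the low and 1429 CPM in the high group, a ratio of 0.409 (0.346 to 0.483), and was near even at 0.983 in the shallowest bin. Il1r1 was at 0.558 (0.428 to 0.724), Map4k4 at 0.6 (0.463 to 0.774) and Itm2c at 0.700 (0.620 to 0.789). A ratio 1.5-fold lower or less was seen in 5.56% of the 216 genes.

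**Figure D4:**
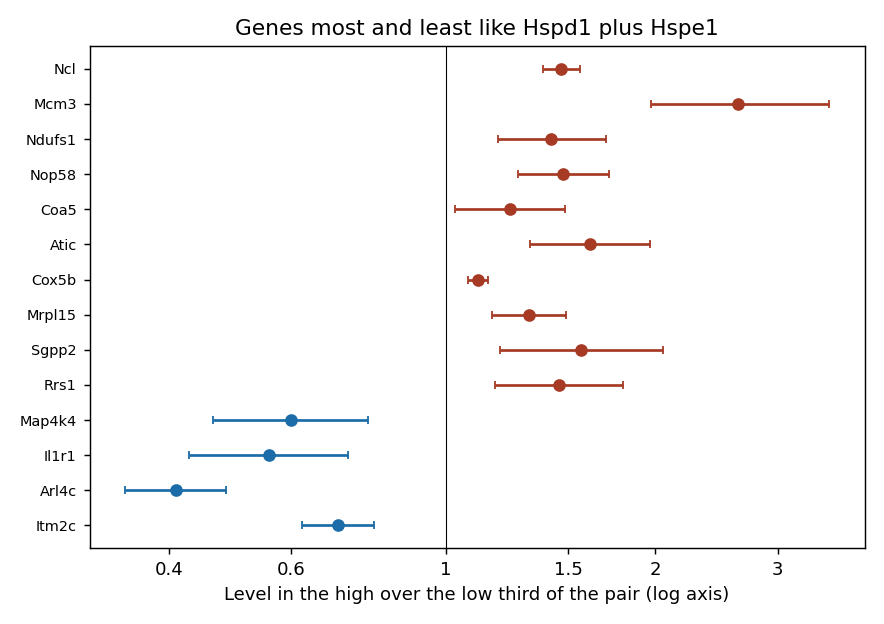
Level in the high over the low group of cells by pair share, within depth bins and over UMIs other than the pair, for the 10 genes with the highest and 4 of the 5 with the lowest correlation with the pair, on a log axis with 95% counting intervals. Mcm3 is farthest to the right at 2.63 and Arl4c farthest to the left at 0.409.

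Endocrine and T cell markers had most of their UMIs in the low group, while the enterocyte marker Vil1 did not differ detectably. The part of such cells in the results was not tested. The 3 measured endocrine markers, Scg2, Resp18 and Ptprn, summed to 135 UMIs in the low, 23 in the middle and 42 in the high group, that is 972, 161 and 296 CPM. Of their 200 UMIs, 80 came from 3 cells, and 1 cell of the low group held 36. The T cell markers Ctla4, Icos and Cd28 had 18 UMIs in the low, 2 in the middle and 0 in the high group. Of these 20 UMIs, 13 came from 3 cells. The enterocyte markers Vil1 and Alpi summed to 4977, 4485 and 4316 CPM. Between the high and the low group Alpi was at 0.528 (0.393 to 0.704) and Vil1 at 0.953 (0.845 to 1.08), and 1 cell of the low group held 54 of these UMIs. Without the 52 cells that held an endocrine or T cell marker UMI, the pair's mean correlation was 0.234, 5 genes still reached 0.1 and 11 reached -0.1, against 5 and 12 with them.

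Among the ranked genes of the lists of mitochondrial function, only Ndufs1 reached a correlation of 0.1 with the pair. In the list of mitochondrial chaperones and proteases the only other measured gene was Bcs1l, an assembly factor of complex III, at a ratio of 1.5 (1.09 to 2.07) between the high and the low group with a correlation of 0.0331. Of 4 respiratory chain genes 1, Ndufs1, reached 0.1, with a ratio of 1.42 (1.19 to 1.70). From the shallowest to the deepest bin its ratio was 1.87, 0.999, 1.62 and 1.47. Ndufb3 was at 1.05 (0.975 to 1.13), not detectably different, and Coq10b, of coenzyme Q handling, was lower at 0.735 (0.589 to 0.914). The 4 had a median correlation of 0.0450, beside -0.0167 over all 216 genes.

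Of 6 genes of the mitochondrial ribosome and translation none reached 0.1 and their median correlation was 0.0330. Mrpl15 was at a ratio of 1.31 (1.16 to 1.49) and Mrpl30 at 1.13 (1.05 to 1.22). Mrpl44, Mrps9, Mars2 and Fastkd2 lay between 1.05 and 1.35, each within counting error of 1. None of 10 ranked genes of a list of metabolism and carriers reached 0.1 in either direction, with a median of -0.0216. That list is not of mitochondrial genes alone, since it holds Idh1, of the cytosol and peroxisome, and Pecr, of the peroxisome, and it counts Coq10b again. Among them the fatty acid oxidation gene Acadl at 0.872 (0.764 to 0.994).

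Of the list drawn up for chaperones and co-chaperones outside the mitochondrion, 3 of 31 genes were in the table. Bag2, a regulator of Hsp70, was at 1.36 (0.817 to 2.3) from 103 UMIs. Ppil3, with 639 UMIs, was at 0.879 (0.720 to 1.07), and Dnajb2, with 24 UMIs, at 3.18 (0.982 to 13.4). None of the 3 differed beyond counting error. Of 5 nucleolar genes, Ncl and Nop58 reached 0.1, while Imp4, Wdr75 and Wdr12 were at 1.06 (0.861 to 1.30), 1.11 (0.836 to 1.48) and 1.21 (0.918 to 1.60). Of 4 ribosome and elongation factor genes, Rpl7 and Rpl37a had correlations of -0.115 and -0.103, with levels only 0.969 (0.948 to 0.990) and 0.975 (0.959 to 0.991) times as high in the high group. Rpl31, of the same list, was at 1.04 (1.02 to 1.07), and Eef1b2, at 0.988 (0.955 to 1.02), did not differ detectably.

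Summed over the bins, replication and centromere genes were mostly higher where the pair was high. Of 5 measured, Mcm3 reached 0.1 among the 3 that could be ranked. Beside Mcm3, the primase gene Prim2 was at 2.33 (1.37 to 4.08), the BRCA1 partner gene Bard1 at 2.84 (1.40 to 6.25) and the cohesin protector gene Sgol2 at 2.82 (1.28 to 6.85), from 101, 51 and 53 UMIs. Hjurp, a chaperone of the centromeric histone with 306 UMIs, was at 1.18 (0.894 to 1.56), within counting error of no difference.

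Seen from the other end, cells with a UMI of any of these 5 genes held more of the pair than other cells of like depth. They numbered 463, with a median of 359 UMIs, against 925 cells with a median of 261. Against the number that the level of the other cells in each bin gives, Hspd1 was 1.17-fold (1.12 to 1.22) and Hspe1 1.12-fold (1.09 to 1.15). A ratio of 1.25-fold or more was seen in 11.6% of 215 genes, 4.19% were at 0.8 or less, and neither member reached either. Hspd1 stood 35th and Hspe1 50th of the 215, so this was a modest difference in the table.

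The Hspe1 difference was carried by deep cells. In the deepest bin Hspe1 was at 33819 CPM (32703 to 34963) in cells with replication transcripts and at 28931 (27752 to 30147) in those without, 1.17-fold (1.11 to 1.23). At 300 to under 400 UMIs Hspe1 was at 1.08 (1.004 to 1.17), just beyond counting error. Below 300 UMIs it was at 0.986 (0.895 to 1.09) and 1.01 (0.862 to 1.18), not detectably different. Hspd1 was at 14219 CPM (13499 to 14968) against 11899 (11148 to 12688) in the deepest bin, 1.19-fold (1.10 to 1.30), and at 1.44-fold (1.12 to 1.84) in the shallowest. Its bins between, at 1.11 (0.945 to 1.31) and 1.09 (0.964 to 1.24), were within counting error of no difference. The deepest bin is open-ended, and there the cells with such transcripts had a median of 516 UMIs against 480.

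**Figure D5:**
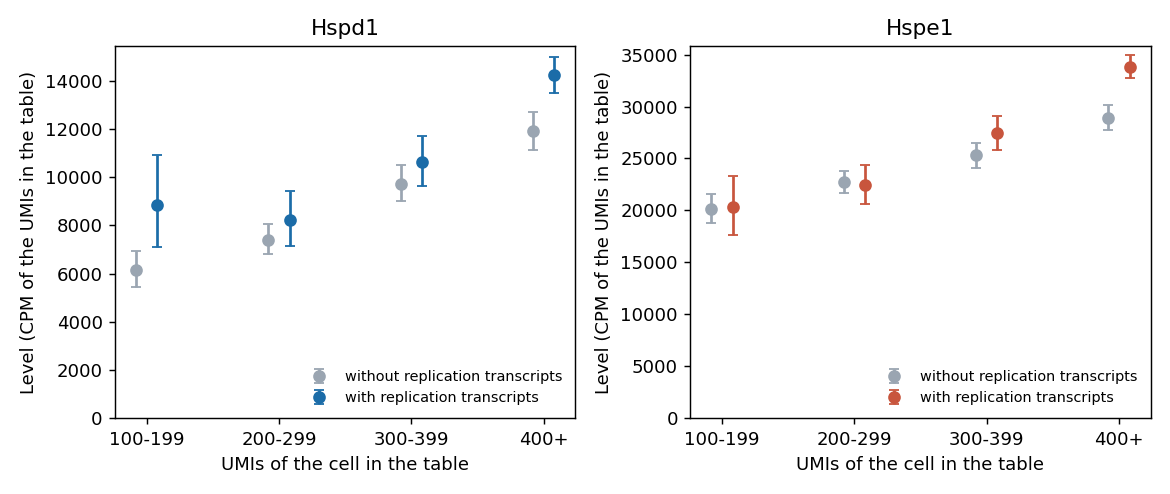
Level of Hspd1 (left) and Hspe1 (right) in CPM of the UMIs in the table, in cells with and without a UMI of Mcm3, Prim2, Sgol2, Bard1 or Hjurp, in 4 bins of the cell total, with 95% counting intervals. In cells of 400 or more UMIs both genes are clearly higher with such transcripts, at 14219 against 11899 and 33819 against 28931 CPM.

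The size depended on which replication gene marked the cells. By 44 cells with Bard1, Hspd1 was at 1.37 (1.22 to 1.53) and Hspe1 at 1.24 (1.15 to 1.34). By 43 cells with Sgol2 they were at 1.35 (1.21 to 1.49) and 1.10 (1.02 to 1.18), by 233 with Mcm3 at 1.25 (1.18 to 1.31) and 1.18 (1.14 to 1.22), and by 87 with Prim2 at 1.18 (1.08 to 1.28) and 1.21 (1.14 to 1.27). The 245 cells with Hjurp gave 1.14 (1.07 to 1.21) and 1.04 (1.00 to 1.08). In the 925 cells without any of these transcripts the pair correlated at 0.142, 0.157, 0.209 and 0.345 from the shallowest to the deepest bin. In all cells the values were 0.135, 0.156, 0.273 and 0.421. These transcripts are sparse, so a cell without them may still be replicating, and the comparison cannot tell such cells apart. Per Hspd1 UMI there were 2.45 Hspe1 UMIs (2.33 to 2.57) in cells with and 2.72 (2.59 to 2.85) in cells without them. Within every bin this ratio was lower in cells with them, and the intervals overlapped. The gap was widest in the shallowest bin, at 2.295 (1.779 to 2.983) with and 3.268 (2.839 to 3.773) without them. Overlap does not show that the ratios were equal, and no interval was computed for their difference.

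Other sets of cells, chosen after the data were seen, were each marked by 1 gene and compared with cells of like depth. Both members were lower beyond counting error in 2 of the 7 sets, those marked by Arl4c and Ptpn18. In 213 cells with 2 or more Arl4c UMIs, Hspd1 was at 0.799 (0.738 to 0.863) and Hspe1 at 0.854 (0.815 to 0.895) of the other cells, which restates the negative correlation of Arl4c above. In 28 cells with the phosphatase gene Inpp5d, Hspd1 was at 0.686 (0.521 to 0.886), while Hspe1, at 0.908 (0.786 to 1.04), did not differ detectably. In 64 cells with 3 or more Ptpn18 UMIs they were at 0.847 (0.732 to 0.973) and 0.916 (0.840 to 0.996). In 143 cells with the chemokine gene Ccl20, Hspd1 was at 0.885 (0.802 to 0.975) and Hspe1 at 1.01 (0.956 to 1.07). The 137 cells richest in Gsta3 for their bin were at 0.911 (0.827 to 1.00) for Hspd1 and 0.918 (0.864 to 0.973). Cells with Fn1 (283 cells) or the alkaline phosphatase gene Alpi (61 cells) lay between 0.949 and 1.00 for both genes, within counting error of the rest.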

How the data were processed

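The authors' deposited table holds raw counts per gene and cell barcode, all whole numbers, taken here as UMI counts. Per the submitters' processing notes, Cell Ranger, Seurat 2.3.0 and mm10 were used, with no role given. Neither the annotation nor earlier filters are stated there. The last row was incomplete and was left out, which left 779 genes. No column of unknown origin was used (0 left out). The analysis kept barcodes of 100 or more UMIs, and doublets were neither called nor removed.

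Pearson residuals were computed against a count expected from the gene's share of all UMIs times the cell total, with overdispersion 100, and limited to 10 in size. Correlations were taken in 4 bins of the cell total and averaged by number of cells, over genes with a UMI in at least 5% of cells. Levels carry exact Poisson intervals, ratios conditional binomial ones and shares Clopper-Pearson ones (95%). Ratios standardised over bins use a Poisson interval on the observed count only. The table counts as 1 sample, so no test between samples was run. The named genes are the members, the 10 highest and 5 lowest by correlation with the pair, the measured genes of the fixed lists (21 lists, 174 genes, 52 in the table), 3 neighbours on either side and head-to-head pairs within 1000 bases. Of these, 2 genes are not reported here. The cell sets marked by Inpp5d, Ptpn18, Ccl20, Arl4c, Fn1, Alpi and Gsta3 were added later, as were the comparisons by single replication genes and without endocrine or T cell markers. The genes and lists were chosen with earlier results of these data known. Python 3.11.15, numpy 2.4.6, scipy 1.17.1 and matplotlib 3.10.9 were used, and the correlation script was tested on simulated data.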

Additional observations from a re-analysis of the deposited data

Results flagged for a closer look

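Both transcripts were also present in the 72 barcodes that the minimum of 100 UMIs removed. Over their 5043 UMIs, Hspd1 was at 5949 CPM (4014 to 8492) from 30 UMIs in 26 barcodes, and Hspe1 at 18243 CPM (14706 to 22374) from 92 UMIs in 48 barcodes. A count of 0 in these barcodes would allow up to 595 CPM (3 counts), and both genes exceed it. The ratio of 3.07 (2.01 to 4.8) and both levels overlap those of the cells of 100 to under 200 UMIs.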

How the results depend on the processing

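No paired analysis was possible because the barcodes carry no sample number, and for the same reason no sample could be left out. The ratio of Hspe1 to Hspd1 stayed within its counting interval under all 5 alternatives run. The correlation of the pair stayed between 0.197 and 0.290 in 10 of 11 alternatives and was 0.107 with cells thinned to 100 UMIs. The Hspd1 level was 10895 CPM in cells of 200 or more UMIs, 9798 without the deepest 5% of cells, 9510 with thinned cells and 20662 without Rpl7, Rpl31, Rpl37a and Ptma in the total. The Hspe1 level was 27813, 26031, 25158 and 53474 CPM in the same order. The number of genes at a correlation of 0.1 or more, 5 as reported, was 2 without those 4 genes, 1 with thinned cells, 1 with Spearman's correlation and 3 in cells without replication transcripts. The number at -0.1 or less, 12 as reported, was 22, 0 and 89 under the first 3 of these. The cause of these shifts was not tested. The number of genes at 1.5-fold or more between high and low groups of cells by pair share, 8 as reported, was 14 in cells of 200 or more UMIs, 5 with cells split at the median share and 5 by Hspe1 share alone. The number 1.5-fold lower or less, 12 as reported, was 5 with the split at the median and 6 by Hspd1 share alone. For the summed pair, the ratio in cells with replication transcripts was 1.14 as reported and 1.11 without the deepest cells. By 1 marker it was 1.20 with Mcm3, 1.20 with Prim2, 1.17 with Sgol2, 1.28 with Bard1 and 1.07 with Hjurp. For Hspd1 alone it was 1.25 with Mcm3, 1.35 with Sgol2 and 1.37 with Bard1. For Hspe1 alone it was 1.18 with Mcm3, 1.21 with Prim2, 1.24 with Bard1 and 1.04 with Hjurp. Among the named genes, correlations came near 0 under at least 1 alternative for Mcm3 (0.0158), Coa5 (0.00774), Rrs1 (0.00620), Itm2c (-0.0305) and Map4k4 (-0.0149), and the sign changed for Atic (-0.00270) and Sgpp2 (-0.0213). The comparisons by single replication genes, by Hspd1 or Hspe1 share alone and without replication transcripts were chosen after the data were seen. Thinning was not run for the comparisons between groups of cells. Depth limits the sparse genes, most of which had under 1 UMI per cell.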
